A study of Mus musculus with 6 samples.

Results

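The genes described here encode chemokines and interleukins, the secreted proteins by which epithelial, stromal and immune cells of the gut call in and instruct leukocytes. The rule that picks them reads gene symbols alone, although the set was proposed with earlier results of these data known: Ccl or Cxcl followed by digits, Cx3cl1, or Il followed by digits and at most 1 letter, receptors and Ccl5 left out. The rule found 64 genes, 32 chemokines and 32 interleukins, among the 19938 genes tested. Il22 was not analysed here, because its array rows carry 2 symbols.

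Jejunal mucosa was scraped from chow-fed mice of the C57/BL strain, 8 to 10 weeks old. Mucosa of ISR2 mice, a transgenic line with SREBP2 overactive in the intestine, was hybridised to 3 arrays, and mucosa of their wild type littermates to 3 arrays. SREBP2, encoded by Srebf2, is the transcription factor that drives cholesterol synthesis and uptake. Nothing in the labels names the promoter that drives the transgene. Nor do they tell whether the 3 arrays of a genotype stand for 3 animals, and the p-values therefore rest on array-to-array spread, which may be technical. Values are log2 RMA levels, on which a difference of 1 is a 2-fold change.

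Chemokines bind G protein-coupled receptors and set the direction in which leukocytes migrate. In the small intestine, epithelial Ccl25 and Ccl28 attract gut-homing lymphocytes and plasma cells, and eotaxins such as Ccl24 and Ccl11 attract eosinophils. Interleukins of the IL-1 family, among them IL-33 and IL-18, are made by barrier cells, and IL-15 and IL-7 sustain intraepithelial lymphocytes.

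In the ISR2 mucosa, 2 of the 64 ligand genes fell, the eotaxin Ccl24 and the alarmin Il33, and 1 rose, Cxcl16, at an adjusted p of 0.05 in limma. The other 61 did not pass. The called share was 4.69% of the ligand genes and 3.02% of all genes tested, and these shares are close. By direction, 1.23% of all genes tested were called lower and 1.79% higher. The changes of the 64 genes ran from -1.85 to 0.88 on the log2 scale. At least 1.5-fold differences were found in 8 of the 64, against 891 of all 19938 genes tested (4.47%), a larger share among the ligand genes. Of these 8, Ccl20, Ccl6, Ccl28, Ccl11 and Ccl3 did not pass. The ligand genes also spread more, with a median SD of 0.20 in ISR2 and 0.18 in wild type arrays, against 0.18 and 0.15 for all genes.

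**Figure D1:**
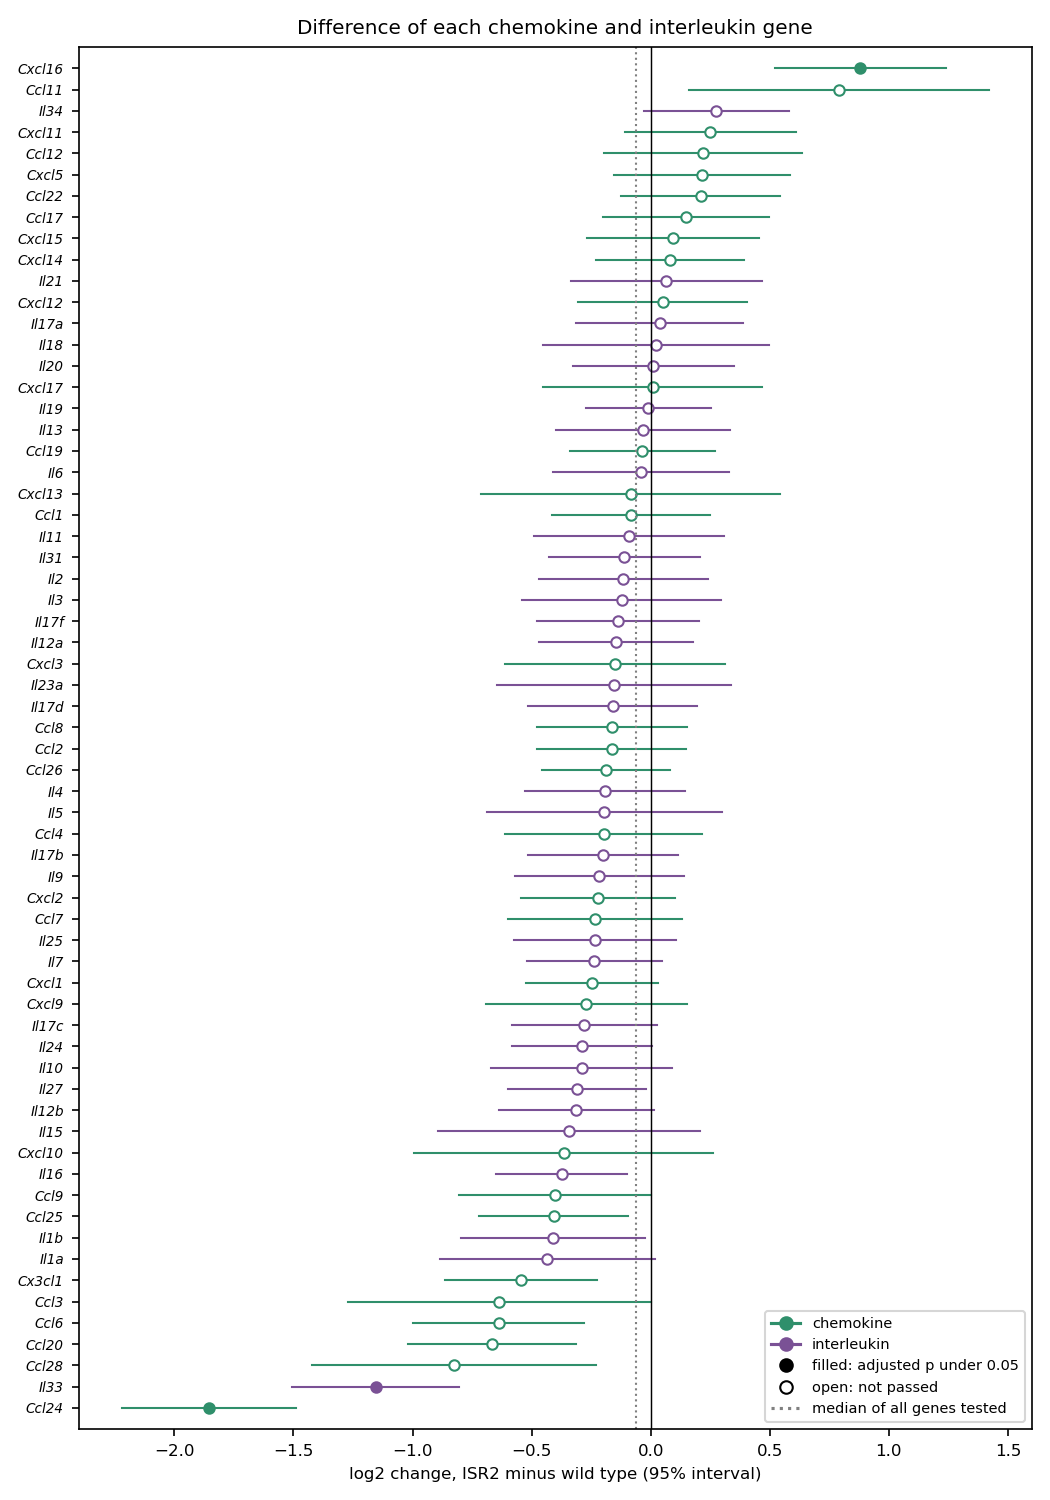
Log2 change (ISR2 minus wild type, horizontal axis) of each of the 64 ligand genes, with its 95% interval, ordered by size. Ccl24 at -1.85 and Il33 at -1.15 lie lowest, and Cxcl16 at 0.88 lies highest; these 3 are filled because they passed an adjusted p of 0.05, and the dotted line is the median of all genes tested, -0.06.

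Most of the genes that did not pass lay slightly below 0. The log2 change was negative in 48 of the 64 ligand genes (75%), against 62.6% of all genes tested, and the median change was -0.16 for the ligand genes and -0.06 for all genes. After each array was centred on its median, 44 of the 64 (68.8%) were negative, against 53.5% of all genes tested. In 20 ligand genes (31.2%) the 3 ISR2 arrays lay wholly on 1 side of the 3 wild type arrays, against 19.8% of all genes. The ISR2 arrays were the lower ones in 17 of the 64 ligand genes (26.6%), against 13.9% of all genes, and the higher ones in 3 of the 64 (4.69%), against 5.87% of all genes. After median centring the groups did not overlap in 17 ligand genes (26.6%), against 17.0% of all genes, and after quantile normalization in 16 (25%), against 18.6%. An unadjusted p below 0.05 was found for 12 ligand genes (18.8%), against 13.1% of all genes. Interleukins were lower in 27 of 32 cases and chemokines in 21 of 32.

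Many of these genes gave weak signals. Olfactory and vomeronasal receptor genes, which serve the sense of smell, are a rough guide to the signal of genes with little part in the gut: the mean levels of 1178 such genes had a median of 3.81 and a 95th percentile of 5.56. Of the 64 ligand genes, 25 had a mean below that percentile, among them Il7, Il10, Il6, Il4 and Il5. Probe sets differ in their response, so this is not a detection call.

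Facts of the series that bear on all of these values were few. Srebf2 stood at 11.02, 10.85 and 11.16 in the ISR2 arrays, against 9.04, 9.15 and 9.50 in the wild type arrays (log2 change 1.78 ± 0.16, SE; adjusted p = 0.000298). Enterocyte markers were at high levels on every array, with a list mean of 12.30 to 12.50 in ISR2 and 12.64 to 12.69 in wild type arrays. The array medians over all rows lay between 6.04 and 6.19. The weights that limma estimated for the arrays ran from 0.40 for ISR2 replicate 2 to 4.06 for ISR2 replicate 1.

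Ccl24 had the largest change of the ligand genes. It encodes eotaxin-2, a ligand of the receptor Ccr3 that attracts eosinophils and is made by macrophages and epithelia. Its level was 5.98, 6.24 and 5.99 in the ISR2 arrays, against 8.13, 7.62 and 8.02 in the wild type arrays. The groups were far apart, and the gap of more than 1 log2 unit exceeded the whole range within either group. Ccl24 was 3.62-fold lower in ISR2 mucosa (log2 change -1.85 ± 0.16, SE, 3 arrays per group; adjusted p = 0.000275 in limma), and the call held in each of the 6 fits that left out 1 array (adjusted p up to 0.00406).

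The other eotaxins did not pass, and their difference from Ccl24 was not tested. Ccl26, its neighbour on chromosome 5 in the GRCm38 gene table, stood at 4.62, 4.57 and 4.52 in the ISR2 arrays, against 4.76, 4.84 and 4.67 in the wild type arrays, a difference of -0.19 ± 0.12 (SE; adjusted p = 0.587). Its mean lay below the level given above for weak signals. Ccl11, eotaxin-1, which is made largely by stromal cells, stood at 7.89, 6.59 and 7.13 in ISR2 mucosa, against 6.41, 6.53 and 6.30 in wild type mucosa. Its ISR2 arrays were all above the wild type arrays but spread widely, and replicate 1 was the highest. The Ccl11 difference of 0.79 ± 0.28 (SE) did not pass (adjusted p = 0.248). It was 0.45 without ISR2 replicate 1, and 1.10 without ISR2 replicate 2, where it passed (adjusted p = 0.034). Ccr3, the receptor that these eotaxins share, differed by -0.08 ± 0.12 (SE; 95% interval -0.34 to 0.18; adjusted p = 0.852). The mean of Ccr3, 5.15, also lay below the level for weak signals.

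Most markers of cells that make or answer to Ccl24 did not pass. Of 10 enterocyte markers 1 fell, and in 6 the ISR2 arrays lay wholly below the wild type arrays, against 13.9% of all genes. Of 12 myeloid markers 10 were lower, none of them passing, and 1 rose, Cd14, the co-receptor for bacterial endotoxin (log2 change 1.16 ± 0.14, SE; adjusted p = 0.00223). The mean of the myeloid list was 6.39 to 7.03 in ISR2 arrays and 6.80 to 7.14 in wild type arrays, which overlap. All 4 measured eosinophil markers, a list added after the ligand values were seen, were lower without passing, 3 with groups that did not overlap. Among them Epx and Prg3 gave weak signals, with means of 4.99 and 5.06. The mean of the 4 markers was 5.25 to 5.35 in ISR2 and 5.50 to 5.62 in wild type arrays. Their lowest adjusted p was that of Alox15, a lipoxygenase (-0.52 ± 0.14, SE; adjusted p = 0.118). In bulk mucosa, fewer cells of a type and less RNA per cell cannot be told apart, and the part of these cells in the Ccl24 difference was not tested.

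Il33 was the only interleukin gene that passed. It encodes an alarmin of the IL-1 family that is stored in nuclei and released from damaged cells, and that acts on mast cells and group 2 innate lymphoid cells. Its level was 7.34, 7.18 and 6.91 in the ISR2 arrays, against 8.50, 8.22 and 8.17 in the wild type arrays. All ISR2 arrays were below all wild type arrays by a margin larger than the range of either group. Il33 was 2.23-fold lower in ISR2 mucosa (log2 change -1.15 ± 0.16, SE; adjusted p = 0.00372), and passed in each of the 6 fits without 1 array (adjusted p up to 0.0223).

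Il33 has 2 annotated starts, and their promoters are shown because Il33 is the called ligand gene for which the RefSeq promoter table (GRCm38.p6) has entries. They lie at chr19:29924863-29925162 and chr19:29945540-29945839, both on the plus strand, and each runs from 250 bases before the start to 50 after it. The array value does not tell the 2 starts apart. Capitals mark matches on either strand to the letters TATAAA, the box that binds the basal transcription machinery.
Il33 upstream start: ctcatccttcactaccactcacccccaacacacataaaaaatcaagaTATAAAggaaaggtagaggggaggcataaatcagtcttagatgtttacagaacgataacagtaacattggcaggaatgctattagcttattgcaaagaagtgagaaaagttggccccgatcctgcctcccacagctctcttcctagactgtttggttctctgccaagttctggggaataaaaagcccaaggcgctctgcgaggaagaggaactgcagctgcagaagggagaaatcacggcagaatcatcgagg
Il33 downstream start: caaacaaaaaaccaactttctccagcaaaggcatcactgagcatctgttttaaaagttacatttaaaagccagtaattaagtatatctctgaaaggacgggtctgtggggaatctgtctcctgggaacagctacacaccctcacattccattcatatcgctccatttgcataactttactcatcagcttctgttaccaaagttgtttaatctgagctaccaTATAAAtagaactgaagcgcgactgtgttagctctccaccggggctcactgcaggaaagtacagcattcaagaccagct
At the downstream start these letters began at base -29, the usual distance from a start. At the upstream start the same letters began at -203, far from the start. They were in 13.6% of the 32851 promoters of this length and in 19 of the 52 promoters (36.5%) that the table holds for 45 of the ligand genes. No Il33 promoter held the letters TCACNCCAC of a sterol regulatory element, which were in 1.24% of all promoters. These matches describe the sequence only.

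Stromal and endothelial cells are known sources of IL-33, and the list means of their markers overlapped between the groups. The mean of 12 smooth muscle and stroma markers was 7.95 to 8.94 in ISR2 arrays and 7.29 to 9.56 in wild type arrays, with none called. Its muscle genes were highest on replicate 2 of both groups, and they widen this range. Actg2, for example, stood at 9.71 in ISR2 replicate 2 and 10.73 in wild type replicate 2, against 6.75 to 7.43 on the other arrays. The stroma marker with the smallest p was Col1a1, a collagen chain (0.25 ± 0.19, SE; adjusted p = 0.663). For 6 endothelial markers the list mean was 6.08 to 6.96 in ISR2 arrays and 6.23 to 6.47 in wild type arrays. The endothelial marker with the smallest p was Vwf, von Willebrand factor (0.43 ± 0.17, SE; adjusted p = 0.307). Of the 6 endothelial markers 5 were higher in the ISR2 arrays and 1 was lower, none passing. What stromal and endothelial cells contributed to the Il33 difference was not tested. Il1rl1, the receptor specific for IL-33, was not analysed here, and the receptor subunit Il1rap, which IL-33 shares with IL-1, differed by -0.30 ± 0.14 (SE; adjusted p = 0.431). Of 4 genes listed for group 2 innate lymphoid cells, added after the ligand values were seen, none passed. The smallest p was that of Kit, the receptor for stem cell factor (-0.29 ± 0.19, SE; adjusted p = 0.589). These 4 genes are not confined to those cells.

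Cxcl16 was the ligand gene that rose. It encodes a chemokine that exists both as a transmembrane protein, which also serves as a scavenger receptor for oxidised lipoprotein, and as a shed ligand of Cxcr6 on T cells and innate lymphocytes. Its level was 8.82, 8.74 and 8.34 in the ISR2 arrays, against 7.86, 7.61 and 7.80 in the wild type arrays. The groups did not overlap, and ISR2 replicate 3 lay nearest to wild type. Cxcl16 was 1.84-fold higher in ISR2 mucosa (log2 change 0.88 ± 0.16, SE; adjusted p = 0.018). The difference kept its direction in every fit run, but the call was lost without wild type replicate 1 (adjusted p = 0.0589), wild type replicate 2 (0.0814) or ISR2 replicate 1 (0.103), without both wild type replicate 3 and ISR2 replicate 2 (0.0587), and when all rows of the array were tested together (0.0699). Cxcr6, its receptor, differed by -0.28 ± 0.18 (SE; 95% interval -0.68 to 0.11; adjusted p = 0.575). The mean of Cxcr6, 4.89, lay below the level given above for weak signals.

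**Figure D2:**
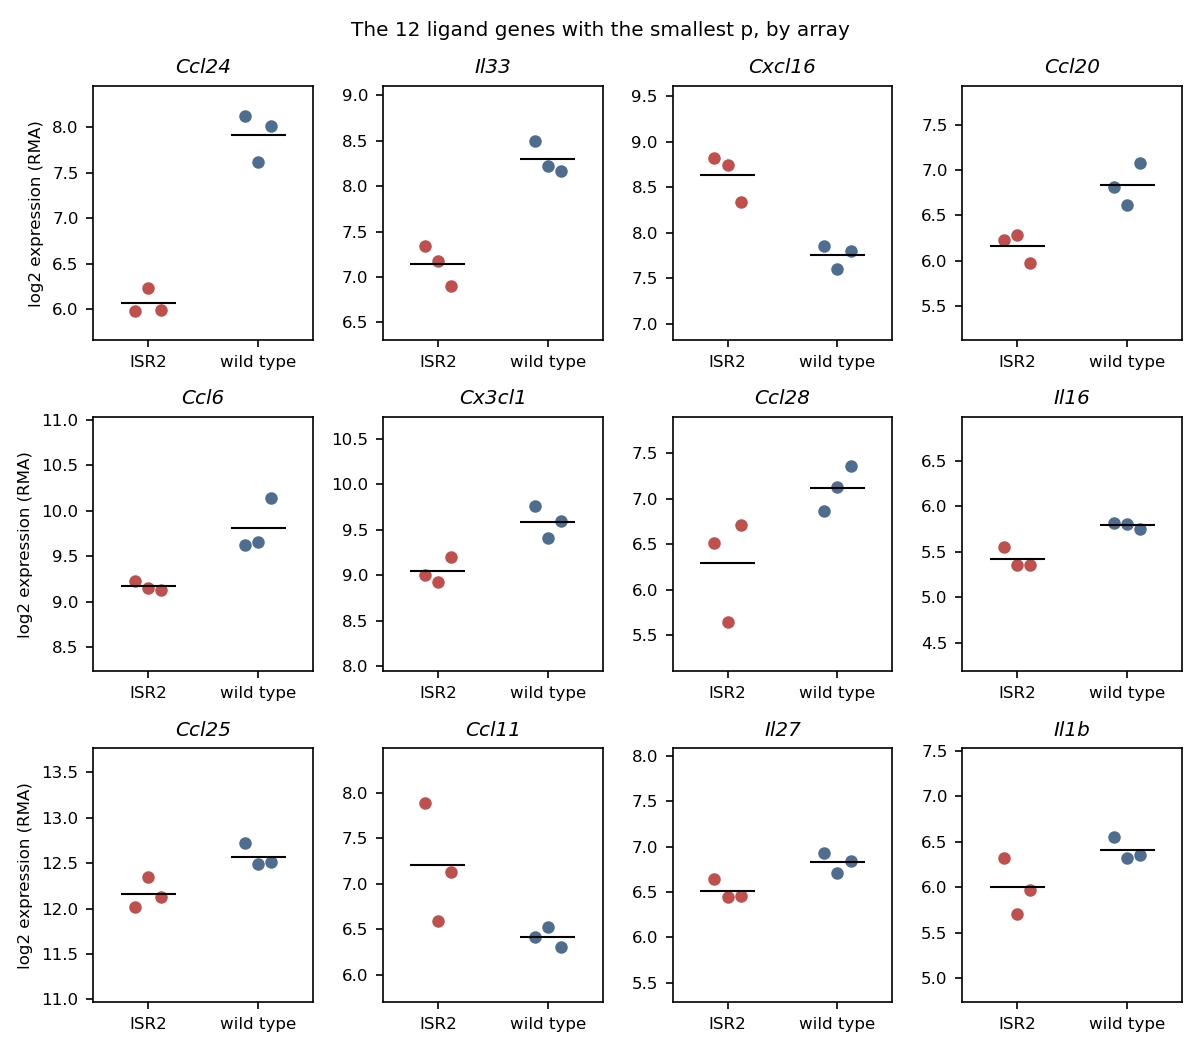
Log2 expression (vertical axis, the same span of 2.8 units in each panel) of the 12 ligand genes with the smallest p, with 1 point per array and a bar at the group mean. The ISR2 points of Ccl24 lie between 5.98 and 6.24 and those of Il33 between 6.91 and 7.34, below all wild type points, and those of Cxcl16 lie between 8.34 and 8.82, above all wild type points.

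The other membrane-bound chemokine, Cx3cl1 or fractalkine, differed the other way without passing. Its level was 9.0, 8.93 and 9.20 in the ISR2 arrays, against 9.76, 9.41 and 9.60 in the wild type arrays. The groups did not overlap (log2 change -0.55 ± 0.14, SE; adjusted p = 0.0939). Its receptor gene Cx3cr1, a marker of intestinal macrophages, differed by -0.06 ± 0.15 (SE; adjusted p = 0.913).

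Of the chemokines that guide lymphocytes into the mucosa, Ccl25, Ccl28 and Ccl20 were lower in the ISR2 arrays without passing. Ccl25, the epithelial chemokine of the small intestine, had the levels 12.01, 12.35 and 12.13 in ISR2 mucosa, against 12.72, 12.49 and 12.51 in wild type mucosa. The groups did not overlap, but the difference was small (-0.41 ± 0.14, SE; adjusted p = 0.229). A second array row of Ccl25, of lower signal, differed by -0.24 ± 0.13 (SE) with groups that did not overlap either. Ccl28, a mucosal chemokine for plasma cells, stood at 6.52, 5.64 and 6.71 in the ISR2 arrays, against 6.86, 7.13 and 7.36 in the wild type arrays. The lowest value came from ISR2 replicate 2, and the difference of -0.83 ± 0.26 (SE; adjusted p = 0.189) was -0.50 without that array. Ccl20, which draws Ccr6-bearing cells to the epithelium over lymphoid follicles, stood at 6.23, 6.29 and 5.98 in the ISR2 arrays, against 6.81, 6.62 and 7.07 in the wild type arrays (-0.67 ± 0.16, SE; adjusted p = 0.0625). These groups did not overlap, and Ccl20 was the ligand gene nearest to the threshold among those that did not pass. Ccl19, the lymphoid tissue chemokine, differed by -0.04 ± 0.13 (SE). Its other array rows, of slightly lower signal, differed the other way, by 0.0035 to 0.20.

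Of the receptors for this group, Ccr9 fell. Ccr9 binds Ccl25 and marks lymphocytes that home to the small intestine. Its level was 4.22, 4.42 and 4.48 in the ISR2 arrays, against 5.54, 4.97 and 5.47 in the wild type arrays, so the groups did not overlap, although the signal was weak. The change was -0.96 ± 0.17 on the log2 scale (SE; adjusted p = 0.018). The call was lost without wild type replicate 1 (adjusted p = 0.0948), wild type replicate 3 (0.0643) or ISR2 replicate 1 (0.105), without both wild type replicate 3 and ISR2 replicate 2 (0.0590), and with all rows tested (0.0726). Ccr6 differed by -0.27 ± 0.13 (SE; adjusted p = 0.444) and Ccr10, a receptor for Ccl28, by -0.28 ± 0.20 (SE; adjusted p = 0.628). Of the 22 chemokine receptors measured, Ccr9 was the 1 that fell, none rose, 19 had a negative change, and the median was -0.17. Among all genes tested 3.02% were called, 62.6% had a negative change, and the median was -0.06. The median level of the 22 receptors, 5.04, lay below the level given above for weak signals.

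Markers of T cells and intraepithelial lymphocytes, some of which carry Ccr9, were also lower in part. Whether they varied with Ccr9 was not tested. Of 12 measured, 5 fell and none rose. The other 7 did not pass, and Gzma, Cd3d, Cd5, Cd4 and Cd2 among them had groups that overlapped. The 4 with the smallest p were Cd7 (-1.41 ± 0.18, SE), Gzmb of cytotoxic granules (-1.43 ± 0.20), Cd3e of the T cell receptor complex (-1.08 ± 0.17) and Cd8a (-0.91 ± 0.17), at adjusted p of 0.00274, 0.00427, 0.00889 and 0.0221. Cd8a did not pass in 3 of the 6 fits that left out an array, those lacking ISR2 replicate 3, wild type replicate 1 and wild type replicate 2 (adjusted p up to 0.118), nor with all rows tested (0.0783). The list mean was 6.28 to 6.76 in ISR2 arrays and 7.07 to 7.46 in wild type arrays. Of 8 B and plasma cell markers all were lower, but none passed, and the smallest p was that of Cd22 (-0.51 ± 0.18, SE; adjusted p = 0.26). The part of these cells in the chemokine and receptor values was not tested.

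**Figure D3:**
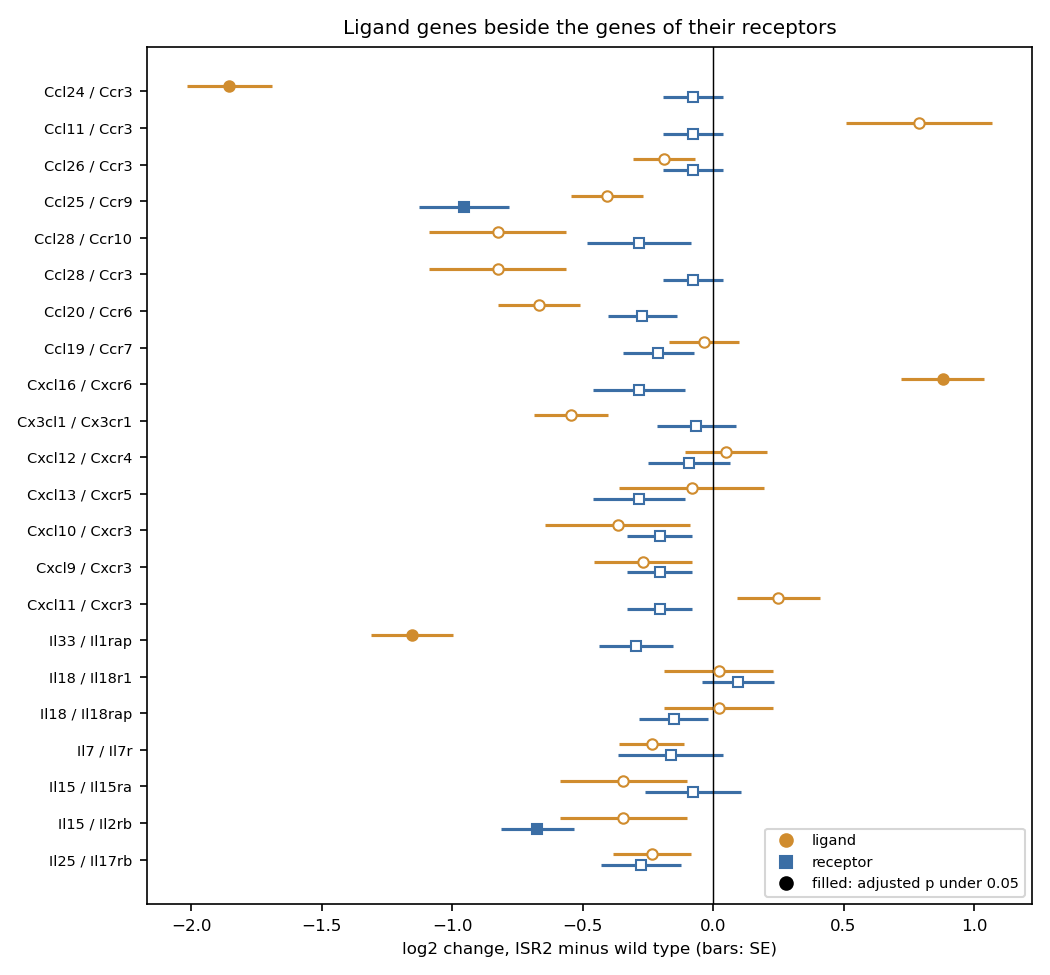
Log2 change (ISR2 minus wild type, horizontal axis; bars are SE) of ligand genes (circles) and of a receptor gene for each (squares), with filled symbols for an adjusted p below 0.05. Ccl24, Il33 and Cxcl16 are filled while Ccr3, Il1rap and Cxcr6 are open, and Ccr9 at -0.96 is filled while Ccl25 at -0.41 is open. Several receptors, among them Ccr3, Cxcr6 and Ccr9, gave weak signals.

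Among the inflammatory CC chemokines other than eotaxins, no gene passed. Ccl6, a chemokine of rodents that is made by myeloid cells, stood at 9.22, 9.15 and 9.13 in the ISR2 arrays, against 9.62, 9.65 and 10.14 in the wild type arrays. The ISR2 values were tightly grouped below all wild type values (-0.64 ± 0.16, SE; adjusted p = 0.0804). Ccl9, Ccl3 and Ccl4, which lie beside Ccl6 in a short run of genes on chromosome 11, had changes of -0.40, -0.64 and -0.20, so all 4 genes of this run were negative. In the other chromosome 11 run, which holds Ccl2, Ccl7, Ccl11, Ccl12, Ccl8 and Ccl1, 4 of 6 changes were negative and the median was -0.12. Genes of such runs resemble each other in sequence, and cross-hybridisation among them was not tested.

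None of the neutrophil chemokines classed here with the receptor Cxcr2 passed. Their 5 changes, of Cxcl1, Cxcl2, Cxcl3, Cxcl5 and Cxcl15, lay between -0.25 and 0.21 with a median of -0.15. Cxcl1 stood at 6.38, 6.51 and 6.45 in the ISR2 arrays, against 6.81, 6.69 and 6.59 in the wild type arrays (-0.25 ± 0.12, SE; 95% interval -0.53 to 0.03; adjusted p = 0.454). Cxcl2 stood at 4.53, 4.25 and 4.19 in the ISR2 arrays, against 4.68, 4.56 and 4.40 in the wild type arrays (-0.22 ± 0.14, SE; 95% interval -0.55 to 0.10). The groups did not overlap for Cxcl1, and overlapped for Cxcl2, whose signal was weak (mean 4.43). Of 6 neutrophil markers none passed, and the smallest p was that of Elane, neutrophil elastase (-0.18 ± 0.13, SE; adjusted p = 0.649). The list mean was 4.97 to 5.07 in ISR2 arrays and 4.97 to 5.10 in wild type arrays. The median level of the neutrophil markers, 5.20, lay below the level given above for weak signals.

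Cxcl1 and Cxcl2 are standard targets of NF-κB, the transcription factor of inflammatory signalling, and their promoters are shown because they hold the same NF-κB letters. They lie at chr5:90890995-90891294 and chr5:90903649-90903948 on the plus strand (GRCm38.p6, RefSeq). Capitals mark matches on either strand to the NF-κB consensus GGGRNNYYCC, where R is A or G, Y is C or T and N is any base. In each run 2 overlapping matches are joined.
Cxcl1: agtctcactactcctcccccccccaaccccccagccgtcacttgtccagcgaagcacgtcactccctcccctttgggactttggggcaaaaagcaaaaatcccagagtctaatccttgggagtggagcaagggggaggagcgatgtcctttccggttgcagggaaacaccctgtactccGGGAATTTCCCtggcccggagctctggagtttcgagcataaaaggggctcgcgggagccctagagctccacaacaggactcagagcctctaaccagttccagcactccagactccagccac
Cxcl2: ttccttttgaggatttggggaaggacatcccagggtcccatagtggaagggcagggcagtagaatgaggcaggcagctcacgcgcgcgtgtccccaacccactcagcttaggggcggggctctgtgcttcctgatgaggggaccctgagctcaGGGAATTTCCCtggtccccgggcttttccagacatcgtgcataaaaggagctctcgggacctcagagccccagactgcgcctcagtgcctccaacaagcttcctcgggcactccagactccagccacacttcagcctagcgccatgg
The run GGGAATTTCCC began at base -71 in Cxcl1 and at -97 in Cxcl2. This spelling was used after a narrower one had given fewer matches, so the shares describe the sequence only. The consensus was matched in 10 of the 52 ligand gene promoters (19.2%), against 8.46% of all promoters. The 10 belonged to Ccl1, Ccl9, Ccl20, Cxcl1, Cxcl2, Cxcl3, Cxcl10, Il6, Il16 and Il19. None of these 10 genes passed, and their changes ran from -0.67 to -0.01 with a median of -0.23. The sterol regulatory letters were in 1 of the 52 promoters, that of Ccl19.

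The interferon-induced ligands of Cxcr3 did not differ beyond their spread. Cxcl10 stood at 6.47, 6.5 and 6.64 in the ISR2 arrays, against 6.64, 6.42 and 7.65 in the wild type arrays. Wild type replicate 3 was more than 1 log2 unit above its group, and the difference of -0.37 ± 0.28 (SE; adjusted p = 0.663) was 0.0073 without it. Cxcl9 differed by -0.27 and Cxcl11 by 0.25, neither passing.

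Homeostatic CXC chemokines also overlapped between the groups. Cxcl12, the stromal ligand of Cxcr4, stood at 6.29, 5.89 and 6.11 in the ISR2 arrays, against 5.82, 6.10 and 6.22 in the wild type arrays (0.05 ± 0.16, SE; 95% interval -0.30 to 0.40). Cxcl13, which organises B cell follicles, stood at 6.0, 5.76 and 5.70 in the ISR2 arrays, against 5.18, 6.12 and 6.40 in the wild type arrays. The wild type arrays spread more than the ISR2 arrays, and the Cxcl13 difference was -0.08 ± 0.28 (SE; 95% interval -0.71 to 0.54). Leaving out single arrays turned the sign of Cxcl10, Cxcl12 and Cxcl13, so no direction is given for them. Cxcl14 and Cxcl17 differed by 0.08 and 0.01.

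The other IL-1 family genes did not pass, and their difference from Il33 was not tested. Il18, which epithelial cells make constitutively, stood at 9.48, 9.91 and 9.15 in the ISR2 arrays, against 9.74, 9.52 and 9.22 in the wild type arrays. The groups covered the same range (0.02 ± 0.21, SE; 95% interval -0.45 to 0.50; adjusted p = 0.982), and the sign changed without ISR2 replicate 2 or wild type replicate 3. Il1b stood at 6.32, 5.71 and 5.97 in the ISR2 arrays, against 6.56, 6.33 and 6.35 in the wild type arrays (-0.41 ± 0.17, SE; adjusted p = 0.348). Its groups did not overlap, but ISR2 replicate 1 and wild type replicate 2 were nearly equal. Il1a, which lies beside Il1b on chromosome 2, differed by -0.43 ± 0.20 (SE; adjusted p = 0.411).

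Genes that activate IL-1β and IL-18 fell in part. Of 13 inflammasome and processing genes, 2 fell, none rose, and the median change was -0.30. Casp1, the protease that cleaves both cytokine precursors, stood at 7.77, 7.83 and 7.88 in the ISR2 arrays, against 8.56, 8.37 and 8.57 in the wild type arrays (-0.67 ± 0.12, SE; adjusted p = 0.0195). Casp4, the sensor of intracellular endotoxin, stood at 7.99, 7.63 and 7.0 in the ISR2 arrays, against 9.30, 8.83 and 8.64 in the wild type arrays (-1.38 ± 0.26, SE; adjusted p = 0.022). Neither gene's groups overlapped. Casp1 did not pass when ISR2 replicate 1, ISR2 replicate 3, wild type replicate 1 or wild type replicate 3 was left out (adjusted p up to 0.11), or both ISR2 replicate 2 and wild type replicate 3 (0.0656). Casp4 did not pass when wild type replicate 1 or wild type replicate 2 was left out (up to 0.105). With all rows tested, Casp1 (0.0619) and Casp4 (0.083) did not pass. The enterocyte list, whose cells carry these enzymes too, was lower in 7 of 10 members. Its member Alpi, alkaline phosphatase, fell (-0.77 ± 0.16, SE; adjusted p = 0.0417), but passed in just 1 of the 6 fits that left out an array, that without ISR2 replicate 2 (adjusted p up to 0.194), and not after median centring (0.0721) or with all rows tested (0.112). What this list contributed to the caspase values was not tested.

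Cytokines that sustain intraepithelial lymphocytes did not pass. Il15 stood at 7.45, 8.16 and 7.20 in the ISR2 arrays, against 8.22, 7.93 and 7.69 in the wild type arrays, and the groups overlapped because of ISR2 replicate 2. The Il15 difference of -0.34 ± 0.24 (SE; adjusted p = 0.633) was -0.62 without that array. Il7 stood at 4.53, 4.55 and 4.50 in the ISR2 arrays, against 4.88, 4.60 and 4.81 in the wild type arrays, a low signal with groups that just did not overlap (-0.24 ± 0.13, SE; adjusted p = 0.493). Il2rb, the receptor chain that IL-15 shares with IL-2 on lymphocytes, fell: its level was 5.78, 6.01 and 5.63 in the ISR2 arrays, against 6.44, 6.40 and 6.61 in the wild type arrays (-0.68 ± 0.14, SE; adjusted p = 0.0368). It passed in just 1 of the 6 fits that left out an array, that without ISR2 replicate 2 (adjusted p up to 0.159), and not after median centring (0.0581), quantile normalization (0.0601) or with all rows tested (0.0954). It was the only 1 of 30 interleukin receptor genes to pass, where 3.02% of all genes tested passed. Il15ra, which presents IL-15, differed by -0.08 ± 0.18 (SE) and Il7r by -0.16 ± 0.20 (SE).

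The T helper and regulatory cytokines showed no passing change. Il17a stood at 6.47, 6.09 and 6.22 in the ISR2 arrays, against 6.34, 6.32 and 5.99 in the wild type arrays (0.04 ± 0.16, SE; adjusted p = 0.955), and its sign turned without ISR2 replicate 1 or wild type replicate 3. Il10 stood at 3.92, 3.71 and 4.19 in the ISR2 arrays, against 4.36, 4.35 and 3.98 in the wild type arrays, a weak signal with overlapping groups (-0.29 ± 0.17, SE; adjusted p = 0.539). Il4, Il13 and Il5, a run on chromosome 11 that serves type 2 immunity, had changes of -0.19, -0.03 and -0.19, none passing. Il25, the cytokine of tuft cells, stood at 6.46, 6.20 and 6.42 in the ISR2 arrays, against 6.85, 6.47 and 6.46 in the wild type arrays (-0.23 ± 0.15, SE; adjusted p = 0.589). The Il25 groups did not overlap, but ISR2 replicate 1 and wild type replicate 3 were nearly equal. Of 7 tuft cell markers 6 were lower and none passed, the smallest p being that of Alox5ap, of leukotriene synthesis (-0.47 ± 0.13, SE; adjusted p = 0.118). The IL-25 receptor gene Il17rb differed by -0.28 ± 0.15 (SE; adjusted p = 0.509).

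The remaining named interleukins were Il16 and Il27. Il16, a chemoattractant for CD4+ cells, stood at 5.56, 5.35 and 5.35 in the ISR2 arrays, against 5.82, 5.81 and 5.75 in the wild type arrays (-0.37 ± 0.12, SE; adjusted p = 0.204). Il27, a cytokine of antigen-presenting cells, stood at 6.65, 6.44 and 6.45 in the ISR2 arrays, against 6.93, 6.71 and 6.84 in the wild type arrays (-0.31 ± 0.13, SE; adjusted p = 0.34). The groups of both genes did not overlap, and neither passed. In the IL-6 and IL-12 families all 7 changes were negative, between -0.31 and -0.04, against 62.6% of all genes tested. None of the 7 passed, and Il6, Il12a, Il12b and Il31 among them gave weak signals. The 43 ligand genes outside the naming rule had changes between -0.64 and 0.28, a median of -0.15 and none past the threshold.

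**Figure D4:**
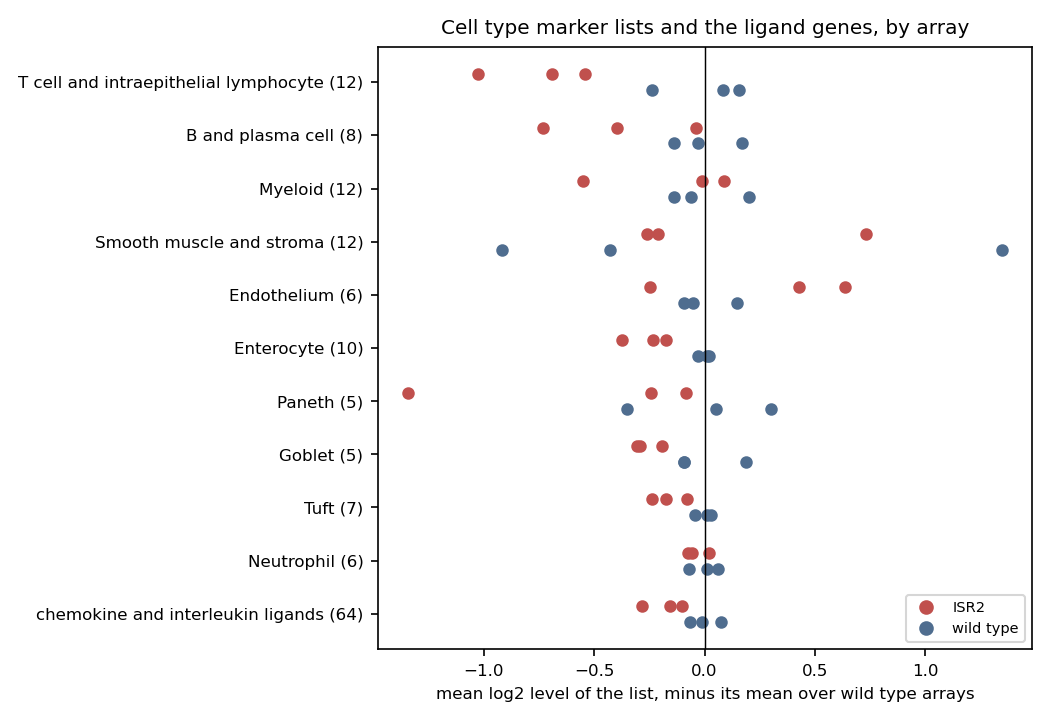
Mean log2 level of each cell type marker list and of the 64 ligand genes on each array, minus the mean of that list over the wild type arrays (horizontal axis), with the number of genes in parentheses. The T cell list is lower on all 3 ISR2 arrays (6.28 to 6.76, against 7.07 to 7.46 in wild type). So are the enterocyte list (12.30 to 12.50, against 12.64 to 12.69) and the goblet list (11.94 to 12.05, against 12.15 to 12.43). The tuft list is lower too (6.54 to 6.70, against 6.74 to 6.81). The stroma list overlaps between groups and spreads most. The ligand genes lie at 5.79 to 5.97 in ISR2 and 6.01 to 6.15 in wild type arrays. All values are before any centring of the arrays.

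The mean over the 64 ligand genes was 5.97, 5.92 and 5.79 in ISR2 replicates 1, 2 and 3, against 6.15, 6.01 and 6.06 in wild type replicates 1, 2 and 3. On this scale the ISR2 means were all below the wild type means. With each array's median over all rows subtracted, a scaling added after the values were seen, the means were -0.17, -0.20 and -0.25 in the ISR2 arrays, against -0.0033, -0.17 and -0.03 in the wild type arrays, and the groups overlapped at ISR2 replicate 1 and wild type replicate 2. Within the ISR2 group, replicate 3 was the lowest array for 33 of the 64 genes and replicate 1 the highest for 32. Within the wild type group, replicate 1 was the highest array for 39. The mean of 5 Paneth cell markers was also uneven, at 9.74, 8.64 and 9.90 in ISR2 replicates 1, 2 and 3, against 9.63 to 10.28 in wild type arrays, and its member with the smallest p was Ang4, an antimicrobial ribonuclease (-0.76 ± 0.29, SE; adjusted p = 0.283). The goblet list fell in 1 of 5 members, Spink4 (-0.62 ± 0.13, SE; adjusted p = 0.0445), a call lost in all 6 fits without 1 array (adjusted p up to 0.16).

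**Figure D5:**
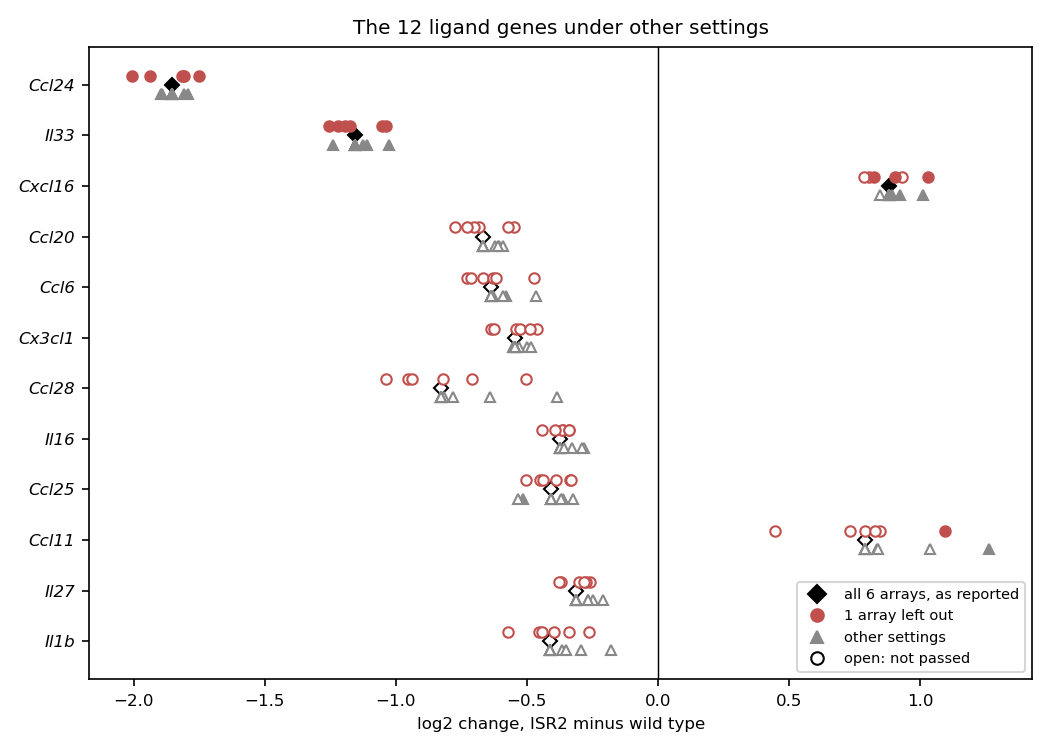
Log2 change (ISR2 minus wild type, horizontal axis) of the 12 ligand genes with the smallest p, with all arrays (diamonds), with 1 array left out (circles) and under the other settings (triangles), filled where the adjusted p is below 0.05. Ccl24 and Il33 are filled throughout, Cxcl16 is filled in part, and Ccl11 runs from 0.45 to 1.26.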

How the data were processed

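Total RNA of scraped jejunal mucosa was hybridised to 6 Affymetrix whole-transcript arrays (3 ISR2, 3 wild type). The authors deposited log2 levels computed by RMA, according to the submitters' processing notes, which give neither its version nor any filter. RMA equalises the arrays, but the array medians over all rows still differed (6.04 to 6.19). The median change of all genes tested was -0.06, and it is not subtracted from the changes given. No background value is given.

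Of 35556 rows, 21789 carried 1 gene symbol in the array annotation, 1621 several and 12146 none. A gene with several rows kept the one with the highest mean over the 6 arrays, which left 19938 genes. The 64 ligand genes came from 69 rows, and all 64 matched the GRCm38.p6 gene table by Entrez ID. Groups came from the titles. limma 3.58.1 (R 4.3.3) fitted ISR2 against wild type with lmFit and eBayes over all genes, with two-sided p-values adjusted by Benjamini-Hochberg over all genes and a threshold of 0.05. Precision is limited by the number of arrays. The fitting code was run on simulated data with independent noise, which checks the code and not the calls on these arrays. Promoters came from RefSeq; a narrower spelling of the NF-κB consensus, searched first, gave fewer matches. Figures used matplotlib 3.10.9 in Python 3.11.15.

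The ligand genes and all lists were chosen with earlier results of these data known. Array values were given for called ligand genes, the 12 with the smallest p and a fixed list of intestinal ligands; of other lists, called genes (up to 4) or the 1 with the smallest p. Ccl26, Cxcl1, Cxcl2 and the genes named beside a receptor, gene run or class were added after their values were seen. Alternatives were other eBayes options, array weights, centring, quantile normalization, a filter at a mean of 5, all array rows, averaging the rows of a gene, a replicate block, an adjusted p of 0.10 and fits without 1 or 2 arrays.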

Additional observations from a re-analysis of the deposited data

How the results depend on the processing

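Ccl24 and Il33 passed in all 16 alternative fits, with changes of -2.00 to -1.75 and -1.25 to -1.03; Cxcl16 passed in 11 of 16 (0.79 to 1.03). With array weights 2 ligand genes were called higher and 6 lower (1268 genes in all, against 602): Ccl11, Ccl20, Ccl6, Cx3cl1 and Ccl25 were added, with adjusted p of 0.0135, 0.0237, 0.032, 0.0232 and 0.0291. At an adjusted p of 0.10, 5 were lower. None was higher (0) with all rows tested (340 genes called in all) or with both wild type replicate 3 and ISR2 replicate 2 left out, where 41 ligand genes had groups that did not overlap, as fewer arrays overlap less. Without 1 array at a time, 0 to 2 ligand genes were called higher and 2 lower, 335 to 589 genes passed in all, and 24 to 31 ligand genes had groups that did not overlap. That last count was 17 after median centring and 16 after quantile normalization, against 20 as reported. The median over the ligand genes was -0.12 after median centring (all genes -0.02) and -0.24 to -0.10 over all alternatives. Signs changed for Cxcl10, Cxcl12, Cxcl13, Il17a and Il18. Without 1 array at a time the changes ran from -0.61 to 0.0073 for Cxcl10, -0.061 to 0.15 for Cxcl12, -0.44 to 0.17 for Cxcl13, -0.077 to 0.12 for Il17a and -0.18 to 0.20 for Il18. Cxcl13 was 0.036 with array weights, 0.017 after quantile normalization and 0.20 without both arrays, Il18 was -0.032 and -0.31 with array weights and without both arrays, and Cxcl10 was 0.027 without both. The causes were not tested. With the replicate number as a block, 3 ligand genes passed, the same as without it, and 778 genes in all. Whether the numbers pair the samples cannot be told from these values. The deviations of same-numbered arrays correlated at -0.02, 0.32 and 0.54 across genes for replicates 1, 2 and 3. ISR2 replicates 2 and 3 correlated best with the wild type array of their own number, and ISR2 replicate 1 did not.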

Other observations

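Outside the ligand genes, the list of 20 other cytokines held 1 fall and no rise. Tnfsf10, which encodes the death ligand TRAIL, stood at 8.09, 8.09 and 8.13 in the ISR2 arrays, against 9.38, 9.07 and 9.05 in the wild type arrays (log2 change -1.06 ± 0.13, SE; adjusted p = 0.00244 in limma), and passed in all 6 fits without 1 array. Of 18 genes of NF-κB and STAT signalling, 1 rose: Rel, an NF-κB subunit of lymphoid and myeloid cells, stood at 8.16, 8.12 and 7.88 in the ISR2 arrays, against 7.24, 7.15 and 7.36 in the wild type arrays (0.80 ± 0.13, SE; adjusted p = 0.0112). Rel did not pass in 3 of the 6 fits that left out an array, those lacking wild type replicate 1, wild type replicate 2 and ISR2 replicate 1 (adjusted p up to 0.0736). Of 10 inhibitors and decoys, 1 rose: Sigirr, which dampens IL-1 receptor signalling in epithelia, stood at 8.19, 8.33 and 8.22 in the ISR2 arrays, against 7.80, 7.47 and 7.69 in the wild type arrays (0.59 ± 0.13, SE; adjusted p = 0.0496), and did not pass in any of the 6 fits without 1 array (adjusted p up to 0.19).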
